A study of Mus musculus with 6 samples.

Results

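Collagen VI and the fibril-associated collagens were followed through 6 member genes. These were Col6a1, Col6a2 and Col6a3, which encode chains of collagen VI, and Col12a1, Col14a1 and Col16a1, which encode collagens XII, XIV and XVI. They were taken by name, as the probe sets annotated to a member gene alone, and gave 12 of 45101 probe sets and 6 of 18193 named genes. The study used Affymetrix whole-genome mouse arrays, 2 for each of 3 groups. The first group was the E17.5 atrioventricular valve (mitral and tricuspid), from wild-type FVB/N embryos at embryonic day 17.5, when the leaflets are remodelling. The second was the E12.5 atrioventricular cushion of wild-type FVB/N embryos at embryonic day 12.5, the mesenchymal swelling from which the leaflets form. The third was MC3T3-E1 (subclone4), an established mouse osteoblast progenitor line, for which the labels name no treatment. RNA was pooled for every array, and the labels call both arrays of a group biological duplicates. The sources used here give no number of embryos or cultures per pool. A single line stands for osteoblast progenitors, and p-values describe only the spread between these pools.

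Collagen VI is secreted as heterotrimers that assemble into beaded microfilaments of the matrix next to the cell. The chains of Col6a1 and Col6a2 are short and that of Col6a3 is long, and in the classical trimer they are combined. Collagens XII, XIV and XVI belong to the fibril-associated collagens with interrupted triple helices. Collagens XII and XIV sit on the surface of collagen I fibrils and influence how fibrils pack in tendon, skin, bone and valve, and collagen XVI is a minor collagen of several connective tissues. The title of the series puts valve remodelling beside osteoblast progenitors, and each gene was therefore set against both the earlier cushion and the cell line.

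Promoter sequences are shown for the 3 collagen VI chains because their genes kept a common order of levels with every difference called. They come from RefSeq (build GRCm38.p6), where 4 of the 6 genes had an entry. Each line gives the 250 bases before a transcription start, 5′ to 3′ along the gene's strand, and capitals mark matches to the motifs searched on both strands. The windows lie at chr10:76726045-76726294 (Col6a1), chr10:76623405-76623654 and chr10:76623631-76623880 (the starts listed for Col6a2) and chr1:90843972-90844221 (Col6a3), each on the minus strand.
Col6a1: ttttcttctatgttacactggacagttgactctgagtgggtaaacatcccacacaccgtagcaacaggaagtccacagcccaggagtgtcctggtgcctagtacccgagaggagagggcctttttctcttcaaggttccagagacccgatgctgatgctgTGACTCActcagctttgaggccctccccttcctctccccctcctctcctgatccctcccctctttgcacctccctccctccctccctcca
Col6a2, first start: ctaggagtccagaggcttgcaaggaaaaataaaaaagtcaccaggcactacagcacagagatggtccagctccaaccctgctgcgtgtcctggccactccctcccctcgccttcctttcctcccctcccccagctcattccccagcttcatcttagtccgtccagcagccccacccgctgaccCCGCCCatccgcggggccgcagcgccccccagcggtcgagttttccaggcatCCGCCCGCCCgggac
Col6a2, second start: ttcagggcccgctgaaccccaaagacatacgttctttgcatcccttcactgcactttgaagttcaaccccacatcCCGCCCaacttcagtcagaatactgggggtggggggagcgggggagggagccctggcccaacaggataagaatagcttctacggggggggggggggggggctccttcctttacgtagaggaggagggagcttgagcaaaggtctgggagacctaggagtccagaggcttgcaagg
Col6a3: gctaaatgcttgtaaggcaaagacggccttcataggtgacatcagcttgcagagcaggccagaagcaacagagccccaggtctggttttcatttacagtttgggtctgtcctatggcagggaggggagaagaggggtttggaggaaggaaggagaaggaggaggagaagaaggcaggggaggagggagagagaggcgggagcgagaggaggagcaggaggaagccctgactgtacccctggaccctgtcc
The TATA box was searched as TATAAA, the CCAAT box by the letters of its name, the GC box as GGGCGG and the AP-1 site as TGANTCA. None of these 4 windows held a TATA box or a CCAAT box, which 12.4% and 33.8% of all 32851 windows of this length hold. The GC box was found 3 times before the first start of Col6a2, with an overlap between matches, and once before the second, against 32.7% of all windows with a match. The AP-1 site was found once, before Col6a1, against 6.75% of all windows. The Col6a3 window held none of the 4 motifs. Col6a1 and Col6a2 are adjacent protein-coding genes on chromosome 10 in that assembly, and Col6a3 lies on chromosome 1.

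Values are log2 ratios, averaged over the probe sets of a gene. On this scale 0 marks the median of that probe set's embryonic arrays, 4 in number, and levels cannot be compared between genes. To be called, a gene needed a limma p below 0.05 after Benjamini-Hochberg adjustment over all 18193 genes, together with a change of 2-fold or more. With so few arrays precision is limited: standard errors had a median of 0.0908, and the smallest p of an exact permutation test with 2 arrays a side is 0.333. Over all genes the log2 differences had a median of -0.14 between E17.5 valve and E12.5 cushion, -0.15 between E17.5 valve and MC3T3 and 0.01 between E12.5 cushion and MC3T3.

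Replicates differed over all genes by a median of 0.0792 to 0.11 on the log2 scale, but blood and liver transcripts differed between embryonic replicates. The mean log2 ratio of 7 measured hepatocyte markers was 2.53 on E17.5 replicate 1 and 0.23 on replicate 2, and that of 8 erythroid markers 1.23 on E12.5 replicate 1 and 0.29 on replicate 2. Mesenchyme markers of the cushion gave -0.51 and -0.59 in E17.5 valve, 0.16 and 0.30 in E12.5 cushion and 0.20 and 0.24 in MC3T3. The MC3T3 mean hides opposite values, from -5.19 for Tbx20 to 3.23 for Prrx1. Of these 10 markers 2 were called higher and 3 lower in E12.5 cushion than in MC3T3, so the like means show no likeness. Ratios do not show whether a marker is present, except that values at the lowest deposited ratio (log2 -6.64) are bounds. In MC3T3 the cardiomyocyte markers Myh7, Tnni3, Nppa, Myl7 and Myl2 and the embryonic globins Hbb-bh1, Hba-x and Hbb-y stood at that floor on both arrays, and the endothelial markers Tek and Emcn on 1 of the 2. Of 5 measured osteoblast markers Sp7, Ibsp and Phex were higher in MC3T3 than in both embryonic groups, and Alpl and Dmp1 were not called. None of the 6 collagen genes reached the floor on any array.

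Both arrays of a group fell on the same side of the other groups for all 6 genes, as the plot of values by array shows. The share of all genes that do so was not computed, so this only describes the 6 genes. The order of levels was MC3T3, then E17.5 valve, then E12.5 cushion for Col6a1, Col6a2, Col6a3, Col12a1 and Col16a1. For Col14a1 it was E17.5 valve, then E12.5 cushion, then MC3T3. The neighbours in these orders were called apart except E17.5 valve and E12.5 cushion for Col12a1 and Col16a1.

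**Figure D1:**
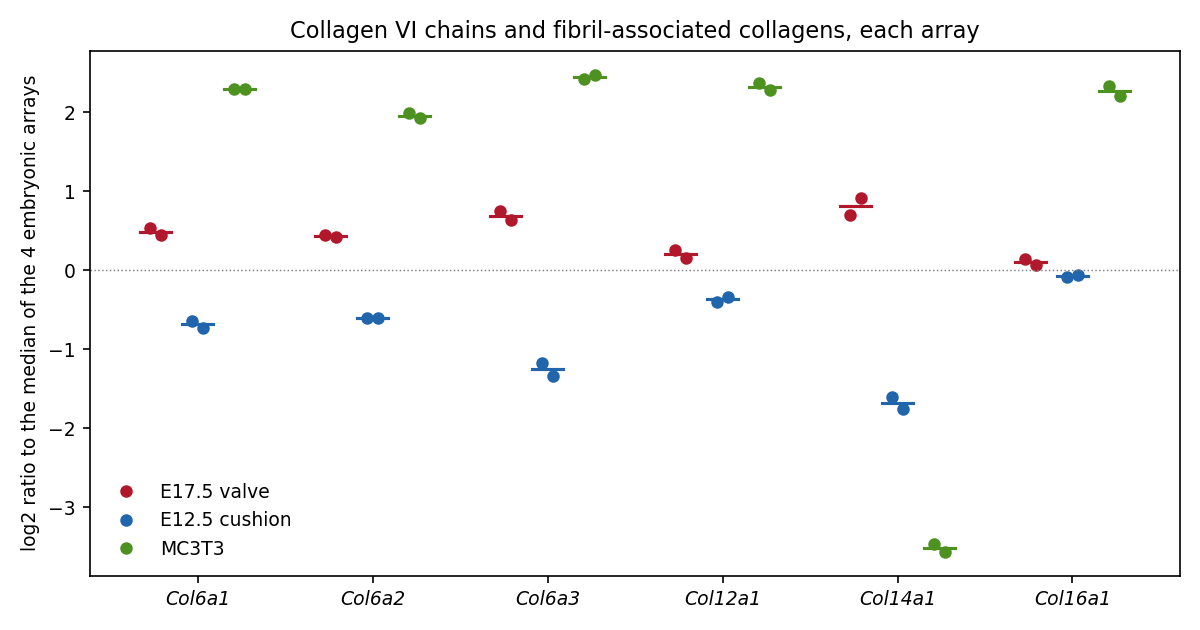
Log2 ratio of each gene (vertical axis, relative to the median of the 4 embryonic arrays) on each array, with points for the 2 arrays of a group and a line at their mean. MC3T3 stands highest for 5 genes and lowest for Col14a1, at a mean of -3.52.

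At E17.5 4 of the 6 genes were called higher than in E12.5 cushion and none was called lower, where 6.51% of all genes were called either way, 4.67% higher and 1.84% lower. Of the 6 genes Col14a1 rose most, 5.63-fold, followed by Col6a3 at 3.86-fold, Col6a1 at 2.25-fold and Col6a2 at 2.05-fold. The median log2 difference over the 6 genes was 1.10. In tissue pools, more cells of a type and more RNA per cell cannot be told apart.

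Col6a3, the long chain of collagen VI, had log2 ratios of 0.74 and 0.64 in E17.5 valve, against -1.18 and -1.33 in E12.5 cushion. The stages did not overlap, and the difference was 1.95 ± 0.09 (SE from limma, adjusted p = 9.33e-06). Col6a1 had 0.53 and 0.44 in E17.5 valve, against -0.64 and -0.73 in E12.5 cushion, a difference of 1.17 ± 0.08 (adjusted p = 4.41e-05). Col6a2, whose product pairs with that of Col6a1, had 0.45 and 0.42 in E17.5 valve, against -0.61 and -0.60 in E12.5 cushion. Its difference of 1.03 ± 0.07 (adjusted p = 5.44e-05) lay just above the 2-fold line and came to 0.98 with a pseudocount of 0.05 on the ratio.

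The measured stage differences of the chains were unequal, with 1 probe set each for Col6a1 and Col6a3. Probe sets of a single gene differed by more for Col12a1 and Col14a1, so unequal change of the transcripts is not shown. Within an array, the log2 ratio of Col6a3 exceeded the mean of Col6a1 and Col6a2 by 0.26 and 0.21 in E17.5 valve, while it was -0.56 and -0.67 relative to that mean in E12.5 cushion. The within-array balance was 0.85 higher at E17.5, and all 4 embryonic arrays kept to their stage. MC3T3 gave 0.28 and 0.36, above both E17.5 arrays by a small margin, with a mean difference of -0.09 for E17.5 valve minus MC3T3. Between the short chains, Col6a1 minus Col6a2 was 0.09 and 0.03 in E17.5 valve, -0.03 and -0.13 in E12.5 cushion, and 0.30 and 0.37 in MC3T3. These balances are descriptions that restate the gene values, add no separate evidence of unequal change, and were not tested.

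**Figure D2:**
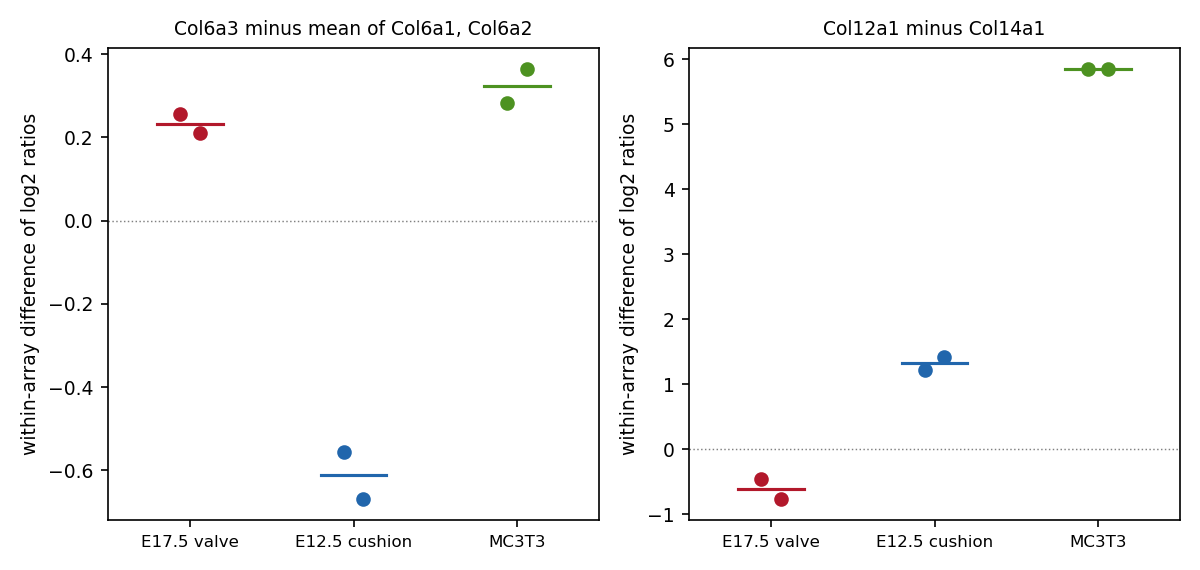
Within-array differences of log2 ratios (vertical axes) for Col6a3 minus the mean of Col6a1 and Col6a2 (left) and Col12a1 minus Col14a1 (right), with points for arrays and lines for group means. The collagen VI balance averages 0.23 in E17.5 valve, -0.61 in E12.5 cushion and 0.32 in MC3T3, and the balance of collagens XII and XIV averages -0.61, 1.32 and 5.85.

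Among the fibril-associated genes, Col14a1, whose product regulates early fibril assembly in tendon, had 0.70 and 0.91 in E17.5 valve, against -1.61 and -1.76 in E12.5 cushion. The difference was 2.49 ± 0.10 (adjusted p = 7.11e-06), the 54th largest rise of 18193 genes. Col12a1 had 0.25 and 0.15 in E17.5 valve, against -0.40 and -0.33 in E12.5 cushion. Its stages did not overlap and its adjusted p was 0.000978, but the difference of 0.57 ± 0.08 (1.48-fold) was below 2-fold and the gene was not called. Col16a1 had 0.14 and 0.06 in E17.5 valve, against -0.09 and -0.06 in E12.5 cushion. Its difference of 0.18 ± 0.08 (adjusted p = 0.106) was not called, and the 95% interval ran from -0.02 to 0.37. After centring of every array on its median, the 6 differences were larger, at 1.29 for Col6a1, 1.15 for Col6a2, 2.07 for Col6a3, 0.68 for Col12a1, 2.61 for Col14a1 and 0.29 for Col16a1, and the same 4 genes were called.

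Markers of other cells differed between the stages beside these rises. Of 10 cardiomyocyte markers Nppa, Ttn and Ryr2 were called higher at E17.5 and none lower, with list means of 0.29 and 0.25 in E17.5 valve against -0.48 and -0.34 in E12.5 cushion. Of 4 epicardial and mesothelial markers only Msln was called, with list means of 0.11 and 0.39 in E17.5 valve against -0.35 and -0.72 in E12.5 cushion. Msln alone carried that shift, at 3.14 ± 0.20, since Wt1 (-0.08), Tbx18 (-0.04) and Upk3b (0.11) were near 0 and the list's median was 0.03. Of 5 melanocyte and glial markers Mitf, Mlana and Fabp7 were called higher, while Dct (-0.28 ± 0.09) and Sox10 (-0.25 ± 0.10) were not called, with list means of 0.31 and 0.34 in E17.5 valve against -0.54 and -0.57 in E12.5 cushion. Of 7 hepatocyte markers Alb, Afp, Ttr, Fgb and Ahsg were called higher, and of 8 erythroid markers 6 were called lower. Of 8 endothelial markers Emcn and Npr3 were called higher, of 8 macrophage and leukocyte markers Ptprc, Mrc1 and Lyve1 were called higher, and of 4 smooth muscle markers Tagln and Cnn1 were called lower. Of 10 cushion mesenchyme markers Postn was called higher and 6 were called lower, and none of 5 osteoblast and 3 tendon markers was called. Their part in the collagen differences was not tested. A setting chosen after the data were seen kept only replicate 2 of both stages, which leaves a single array per stage. It leaves out the arrays richest in liver and blood transcripts, but the arrays kept still differed in them. Mean log2 ratios there were 0.23 at E17.5 and -1.47 at E12.5 for hepatocyte markers, and -2.14 and 0.29 for erythroid markers. Stage differences were then 1.17 for Col6a1, 1.02 for Col6a2, 1.97 for Col6a3, 0.48 for Col12a1, 2.67 for Col14a1 and 0.13 for Col16a1.

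Against MC3T3 the 6 genes divided into 5 that were lower in the embryonic tissue and Col14a1, which was higher. All 6 genes were called between E17.5 valve and MC3T3, where 17.7% of all genes were: 5 were lower, against 7.94% of all genes, and 1 was higher, against 9.78%. All 6 were also called between E12.5 cushion and MC3T3, where 21.1% of all genes were, with 5 lower, against 10.8%, and 1 higher, against 10.2%. Of all genes 5.79% were, like these 5, lower in both stages than in MC3T3. The comparisons share their MC3T3 arrays. The pattern of the collagen VI chains, with a rise from E12.5 to E17.5 and a still higher level in MC3T3, was called for 3 of the 6 genes and for 0.429% of all genes. That of Col14a1, highest in E17.5 valve and lowest in MC3T3 with all differences called, was met by 1.01% of all genes.

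**Figure D3:**
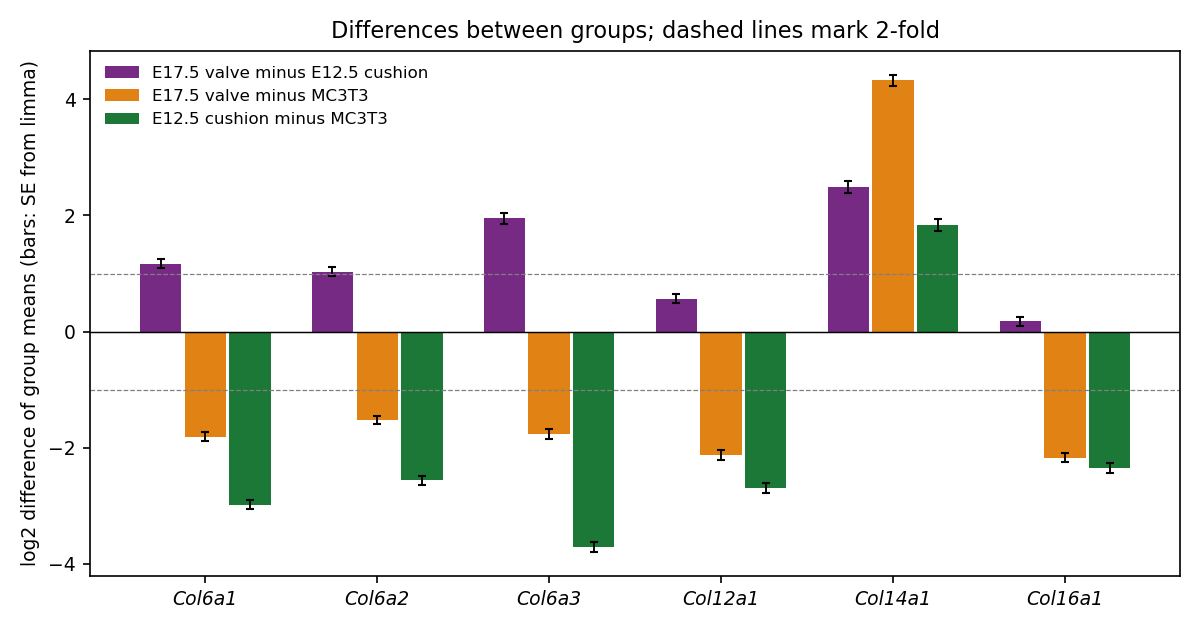
Log2 differences between group means for the 6 genes (vertical axis) in the 3 comparisons, with bars for the difference, error bars for the standard error from limma and dashed lines at 2-fold. Col14a1 is above 0 in all 3 comparisons, and the other genes are above 0 between the stages and below 0 against MC3T3.

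Col6a1 had 0.53 and 0.44 in E17.5 valve and -0.64 and -0.73 in E12.5 cushion, against 2.29 and 2.30 in MC3T3. It was 3.51-fold lower in E17.5 valve than in MC3T3 (-1.81 ± 0.08, adjusted p = 6.19e-07) and 7.89-fold lower in E12.5 cushion (-2.98 ± 0.08). Col6a2 stood at 1.99 and 1.93 in MC3T3, and was 2.88-fold lower in E17.5 valve (-1.53 ± 0.07, adjusted p = 1.12e-06) and 5.90-fold lower in E12.5 cushion (-2.56 ± 0.07). Col6a3 stood at 2.42 and 2.48 in MC3T3. It was 3.38-fold lower in E17.5 valve (-1.76 ± 0.09, adjusted p = 1.29e-06) and 13.1-fold lower in E12.5 cushion (-3.71 ± 0.09) as the mean over probe sets, which was the largest of the 6 genes, although 2 probe sets of Col12a1 gave larger differences of -6.06 and -4.22. All embryonic arrays lay below both MC3T3 arrays for each chain.

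Col16a1 had 0.14 and 0.06 in E17.5 valve and -0.09 and -0.06 in E12.5 cushion, against 2.34 and 2.20 in MC3T3. It was 4.50-fold lower in E17.5 valve than in MC3T3 (-2.17 ± 0.08, adjusted p = 2.99e-07) and 5.09-fold lower in E12.5 cushion (-2.35 ± 0.08). The embryonic stages were thus close to each other and far from the cell line. Its single probe set leaves no check by another.

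Collagens XII and XIV are close relatives, and their genes stood on opposite sides of the embryonic arrays in MC3T3. Col12a1 had 2.37 and 2.28 in MC3T3, and was 4.36-fold lower in E17.5 valve (-2.13 ± 0.08, adjusted p = 3.26e-07) and 6.47-fold lower in E12.5 cushion (-2.69 ± 0.08). Col14a1 had -3.47 and -3.57 in MC3T3, and was 20.1-fold higher in E17.5 valve (4.33 ± 0.10, adjusted p = 2.34e-08) and 3.56-fold higher in E12.5 cushion (1.83 ± 0.10). The size depends on the summary: with a pseudocount of 0.05 on the ratio the Col14a1 differences were 3.43 and 1.13, and the median over probe sets gave 1.06 for E12.5 cushion minus MC3T3. Within an array, Col12a1 minus Col14a1 was -0.45 and -0.76 in E17.5 valve, 1.21 and 1.42 in E12.5 cushion and 5.85 and 5.85 in MC3T3. The E12.5 arrays thus lay between the other groups, with no overlap.

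**Figure D4:**
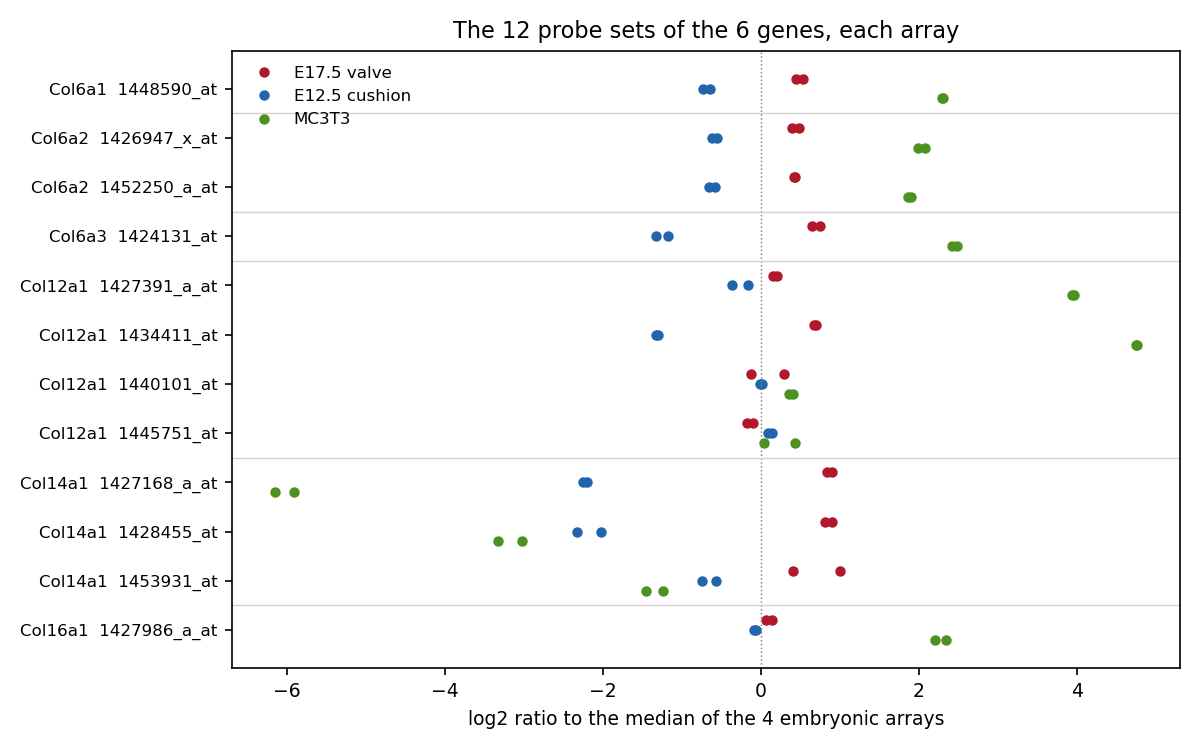
Log2 ratio (horizontal axis, relative to the median of the 4 embryonic arrays) of each of the 12 probe sets on each array, coloured by group. The Col12a1 probe sets 1427391_a_at and 1434411_at reach 3.93 to 4.76 in MC3T3, while the other 2 do not exceed 0.43.

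Probe sets of a gene agreed in direction against MC3T3 but not in size. Of the 4 Col12a1 probe sets, 1434411_at had 0.69 and 0.67 in E17.5 valve and -1.32 and -1.30 in E12.5 cushion, against 4.76 and 4.74 in MC3T3. By this probe set the gene rose 3.99-fold between the stages (2.00 ± 0.09) and was 16.7-fold lower in E17.5 valve than in MC3T3 (-4.06 ± 0.09). Probe set 1427391_a_at was 13.6-fold lower in E17.5 valve than in MC3T3 (-3.77 ± 0.10), and its stage difference of 0.45 ± 0.10 was not called. Probe sets 1440101_at and 1445751_at were not called in any comparison, at 0.08 ± 0.14 and -0.26 ± 0.13 between the stages and -0.29 ± 0.14 and -0.37 ± 0.13 for E17.5 valve minus MC3T3. The mean over 4 probe sets is therefore pulled toward 0 for Col12a1, and the stage call depends on which probe set is read.

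For Col14a1 all 3 probe sets were called higher in E17.5 valve than in E12.5 cushion and MC3T3. Probe set 1427168_a_at was 8.53-fold higher at E17.5 than at E12.5 (3.09 ± 0.11) and 119-fold higher in E17.5 valve than MC3T3 (6.90 ± 0.11). Its MC3T3 values of -6.15 and -5.91 lay near the lowest deposited ratio (log2 -6.64), so its folds against MC3T3 are uncertain in size. Probe set 1428455_at gave 8.14-fold and 16.3-fold, and 1453931_at 2.57-fold and 4.15-fold. Over MC3T3, E12.5 cushion was 14.0-fold, 2.01-fold and 1.62-fold higher by these probe sets in that order, and the last was not called. The Col6a2 probe sets were alike, at 1.03 ± 0.09 and 1.04 ± 0.09 between the stages, though they carry the same source sequence record and so are no independent check. Over the 12 probe sets, 8 were called between the stages, all higher at E17.5, where 7.78% of all probe sets were called either way. Between E17.5 valve and MC3T3 10 were called, where 16.5% of all probe sets were, and between E12.5 cushion and MC3T3 9, where 21.2% were.

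Per the deposited experiment description, the authors listed probe sets that differed 2-fold or more between the stages, and counted a value above 1.5 in MC3T3 as expression there. Of the 12 probe sets 8 were at least 2-fold higher at E17.5, where 6.23% of all probe sets were, and 7 exceeded 1.5 in MC3T3, where 19.2% did. By both limits, without the authors' other filters, 5 of the 12 qualified, against 2.93% of all probe sets. They were the probe set of Col6a1, with a mean MC3T3 ratio of 4.91, both of Col6a2, with 4.10 and 3.68, that of Col6a3, with 5.46, and 1434411_at of Col12a1, with 26.9. The 3 Col14a1 probe sets met the stage limit and had MC3T3 ratios of 0.0153, 0.111 and 0.394. Col16a1 met the MC3T3 limit at 4.83 but not the stage limit.

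Other collagens of the same classes did not share these patterns throughout. In the list counts from here on, genes counted as rising, falling, higher or lower are called genes. Over all genes, 4.67% were called higher and 1.84% lower at E17.5 than at E12.5. Against MC3T3, 9.78% were called higher and 7.94% lower in E17.5 valve, and 10.2% higher and 10.8% lower in E12.5 cushion. Of the other collagen VI chains, Col6a4 and Col6a5 were measured and neither was called in any comparison, with stage differences of -0.17 and -0.30. Of 6 other fibril-associated collagens none was called higher at E17.5 than at E12.5 and 2 were called lower. These were Col9a1 (4.81-fold, -2.27 ± 0.16) and Col9a3 (3.45-fold, -1.79 ± 0.12), chains of the cartilage collagen IX. Col9a1 was also 2.95-fold higher in E17.5 valve and 14.2-fold higher in E12.5 cushion than MC3T3, and Col9a3 3.70-fold higher in E12.5 cushion than MC3T3. Col9a2, Col19a1, Col20a1 and Col22a1 were not called in any comparison. Ratios do not show whether these genes, Col6a4 or Col6a5 were expressed at all.

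**Figure D5:**
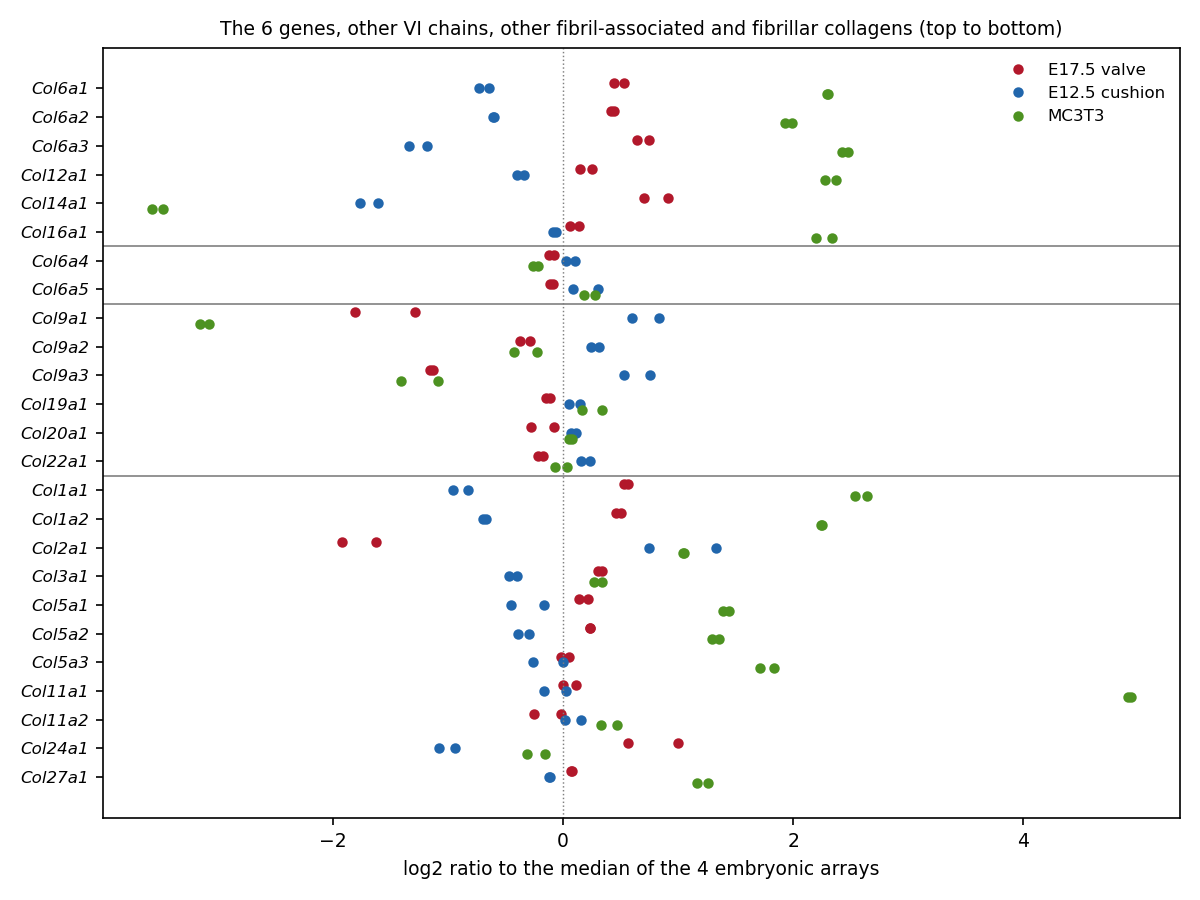
Log2 ratio (horizontal axis, relative to the median of the 4 embryonic arrays) of collagen genes on each array, coloured by group, with the 6 genes above, then other collagen VI chains, other fibril-associated collagens and fibrillar collagens. Col1a1 and Col1a2 lie in the same order as the collagen VI chains, while Col9a1 and Col9a3 are highest in E12.5 cushion.

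Of 11 fibrillar collagens, on whose fibrils collagens XII and XIV sit, 3 were called higher and 1 lower at E17.5 than at E12.5. Col1a1 and Col1a2, the chains of collagen I, rose 2.71-fold and 2.24-fold and Col24a1 3.46-fold, while the cartilage collagen Col2a1 fell 7.01-fold. The median log2 difference over the list was 0.49, against -0.14 over all genes. In E17.5 valve 8 of the 11 were lower than in MC3T3, with Col11a1 29.1-fold, Col2a1 7.06-fold, Col1a1 4.11-fold and Col1a2 3.40-fold lower, and Col24a1 was 2.02-fold higher. In E12.5 cushion 7 were lower than in MC3T3 and none was higher, led by Col11a1 (31.8-fold), Col1a1 (11.1-fold) and Col1a2 (7.61-fold), with Col5a3 (3.73-fold), Col5a1 (3.30-fold), Col5a2 (3.17-fold) and Col27a1 (-1.32 on the log2 scale) after them. Col3a1, at 0.75 ± 0.08 between the stages and 0.01 ± 0.08 for E17.5 valve minus MC3T3, was not called in any comparison.

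Among 9 measured collagen receptors, Itga1, the alpha chain of a collagen-binding integrin, rose 2.95-fold between the stages, and the list's median was 0.22. Itga10 (19.0-fold), the fibrillar collagen receptor gene Ddr2 (5.27-fold) and the collagen VI receptor gene Antxr1 (2.21-fold) were lower in E17.5 valve than in MC3T3. The same 3 genes were lower in E12.5 cushion, 18.1-fold, 7.34-fold and 2.58-fold. No receptor was called higher than in MC3T3 at either stage. Cspg4, which encodes a proteoglycan that binds collagen VI, differed by -0.10 ± 0.16 between the stages and was not called.

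Of 11 matrix partners 4 were called higher at E17.5 than at E12.5 and none was called lower. Matn4 was 1.96-fold lower at E17.5, short of the 2-fold line, and was not called. Tnxb, encoding a tenascin that binds fibril-associated collagens, rose 4.79-fold and Matn2, a matrilin, 3.55-fold. Dcn, the proteoglycan decorin that binds collagens I, VI and XIV, rose 3.03-fold, and Comp, a collagen-binding thrombospondin, 2.20-fold. Tnxb was also 6.92-fold higher in E17.5 valve than MC3T3 (2.79 ± 0.12), while Fmod (16.2-fold), Matn4 (6.63-fold), Bgn (2.76-fold), Matn3 (2.75-fold) and Fn1 (2.08-fold) were lower. In E12.5 cushion 6 were called lower than in MC3T3 and none was called higher. The 6 were Fmod (19.2-fold), Matn2 (6.46-fold), Bgn (3.94-fold), Matn4 (3.39-fold), Dcn (2.98-fold) and Matn3 (2.25-fold).

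Of 24 collagen processing genes only Lox, the collagen crosslinking lysyl oxidase, was called between the stages, and it rose 3.37-fold (1.75 ± 0.11). The list's median was -0.17, against -0.14 over all genes. Serpinh1, the collagen chaperone, was 1.99-fold lower in E17.5 valve than in E12.5 cushion and was not called. In E17.5 valve 11 were lower than in MC3T3, led by the procollagen C-proteinase enhancers Pcolce2 (-3.59 ± 0.51 on the log2 scale) and Pcolce (4.60-fold), the prolyl hydroxylase P4ha3 (4.61-fold) and Serpinh1 (4.27-fold). Pcolce2 had 1.20 and -0.72 in E17.5 valve, against 3.81 and 3.84 in MC3T3, so its E17.5 arrays lay far apart. Loxl1 (3.79-fold) and Adamts3 (2.37-fold) were higher. In E12.5 cushion 10 were lower than in MC3T3, led by Pcolce2 (14.3-fold), Lox (8.31-fold), Pcolce (5.90-fold) and P4ha3 (5.57-fold), and Loxl1 (3.82-fold), Adamts3 (2.26-fold) and Colgalt2 (2.15-fold) were higher.

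The genes nearest to each member were found by the root mean square difference of log2 ratio over the 6 arrays, among 4805 other genes called in any comparison. Nearest to Col6a1 was Col1a2, at 0.06, with group means of 0.48 in E17.5 valve, -0.68 in E12.5 cushion and 2.25 in MC3T3, then Nucb2 (0.10) and Pros1 (0.11). Nearest to Col6a3 was Col1a1, at 0.25, then Glis3 (0.26) and Ahnak2 (0.27), and Col6a1 was 9th of the 4805. Klf4 (0.06), Mgp (0.06), encoding matrix Gla protein, and Lrrcc1 (0.07) were nearest to Col6a2.

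For Col12a1 the nearest were Dse (0.08), Rps6ka5 (0.09) and Myorg (0.10), and for Col16a1 Pkd1 (0.07), Rbm34 (0.08) and Mxra7 (0.09). Col14a1 had Fabp7 (0.15), Muc16 (0.16) and A2m (0.17). Their group means were 0.82, 0.94 and 0.77 in E17.5 valve, -1.61, -1.78 and -1.47 in E12.5 cushion and -3.43, -3.31 and -3.35 in MC3T3. The other members were 4353rd or farther from Col14a1 among the 4805 genes. These ranks describe likeness over 3 groups and do not bear on shared control.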

How the data were processed

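RNA of 6 samples was measured on Affymetrix arrays. Per the labels' protocols, each array carried pooled RNA, and the amplification kits named there are not tied to samples. The deposited experiment description states that images were processed in GeneSpring GX 7.3 by RMA and quantile normalization, and that each gene was then divided by its median. The deposited values are linear ratios, whose median over the 4 embryonic arrays is 1 for every probe set, with a minimum of 0.01. The sources used here do not state if MC3T3 and embryonic arrays were normalized as 1 set. After dropping 64 controls, 932 probe sets of several genes and 9160 unnamed, 34945 probe sets gave 18193 genes, with symbols from GEO's platform annotation.

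Log2 ratios were averaged over the probe sets of a gene and fitted with limma 3.58.1 in R 4.3.3 (lmFit, then eBayes, on all 6 arrays; residual df 3, prior df 4.57), and p-values were adjusted by Benjamini-Hochberg per comparison. Probe sets were fitted alike, over 45037 of them. The method was also run on simulated data with independent noise for every gene. That does not mimic transcripts that shift together between pools, and no result here rests on it. The members and the gene lists were chosen with earlier results of these data known. The text names all members and their probe sets, the called members of each pathway list (the 4 largest each way where over 8 were called) and the 3 genes nearest to each member. Genes outside that rule (Cspg4, Col3a1, the uncalled chains, Serpinh1 and Matn4 between the stages and the cell type markers) were chosen after their values were seen. Alternatives were array centring, other thresholds, eBayes with a trend, a replicate block, arrays left out, only the arrays compared, other probe set summaries, a pseudocount and genes at the floor left out.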

Additional observations from a re-analysis of the deposited data

How the results depend on the processing

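Of 282 recomputed differences of the 6 genes over 16 settings, 279 kept their direction and their side of the call threshold, and none turned its direction. Part of this was fixed in advance. EBayes with a trend, the replicate block, only the arrays compared and leaving out genes at the floor changed the error but not the difference. So did leaving out an array of the group not compared. The exceptions were Col6a2 between the stages with a pseudocount of 0.05 (0.98), Col14a1 for E12.5 cushion minus MC3T3 without probe sets ending in _x_at, _s_at or _a_at (0.85), and Col12a1 between the stages with the most variable probe set (2.00, called). That last setting and the use of only replicate 2 of both stages were chosen after the data were seen. Leaving out _x_at, _s_at and _a_at probe sets removes Col6a2 and Col16a1. Of the remaining 4 genes 3 were called for E12.5 cushion minus MC3T3, against 6 of 6. Over all genes in that setting 3472 of 16591 were called. At 4-fold, 1 of the 6 genes was called between the stages against 4, and 3 against 6 for E17.5 valve minus MC3T3. Over all genes, the stage comparison had 1185 calls, 9740 with no fold requirement, 154 at 4-fold and 2027 with the most variable probe set. E17.5 valve minus MC3T3 had 3225, 10942 with no fold requirement and 1233 at 4-fold, and E12.5 cushion minus MC3T3 3830, 10482 and 1243. With arrays centred, 83.5% of stage calls were higher at E17.5 against 71.7% as deposited. With no fold requirement the majority turned, and 36.0% of stage calls and 35.5% of E17.5 valve minus MC3T3 calls were higher in E17.5 valve, against 71.7% and 55.2%. At 4-fold, 71.5% of E17.5 valve minus MC3T3 calls were higher against 55.2%, and 61.1% of E12.5 cushion minus MC3T3 calls against 48.6%. Leaving out each array in turn gave 4 genes of the 6 between the stages and 6 in both other comparisons each time, and 1110 to 1318, 3193 to 3238 and 3746 to 3974 calls over all genes. The replicate numbers were taken only as names of samples. Deviations correlated at 0.15 between E17.5 valve and E12.5 cushion, 0.02 between E17.5 valve and MC3T3 and 0.06 between E12.5 cushion and MC3T3. These values do not show whether arrays with the same number were processed together. With the replicate block 4, 6 and 6 of the 6 genes were called, and 1202, 3237 and 3835 over all genes. Signal over background cannot be read from ratios, so a filter on dim probe sets was not run, and the cause of the disagreement between Col12a1 probe sets was not tested.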
